A study of Mus musculus with 6 samples.

Results

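In mouse sperm, 726 stretches of DNA away from protein-coding genes were called as enriched for nucleosome-sized fragments in neither library of protamine 1 K49A mutants and in every wild-type library. They were chosen by the presence or absence of peak calls, after merging the enriched regions (broad peaks) of all 6 libraries into 44743 regions. Regions were kept that overlapped a peak in neither K49A list and in all 4 wild-type (WT) lists, had their midpoint outside every protein-coding gene and did not reach within 1 kb of the start or end of a coding gene. Between genes here means between coding genes, since 384 of the 726 regions (52.9%) overlapped no annotated gene of any kind and the others overlapped a non-coding gene or pseudogene. Of all merged regions, 6161 (13.8%) had that pattern of calls. Among the 17294 merged regions between genes the pattern was found in 4.20%, against 33.5% of the regions at gene ends and 7.04% of those in gene bodies. These shares follow from the calls that chose the regions, and nothing is read from them about genotype.

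Protamines are small basic proteins that replace most histones while the sperm nucleus is packed. Micrococcal nuclease (MNase) cuts exposed DNA and spares DNA wrapped in a nucleosome, so nucleosome-sized fragments mark places where histones are still found. In mammalian sperm such places are known mainly from gene starts rich in the dinucleotide CG and from genes of embryonic development. Intergenic DNA also holds genes that make no protein, such as those for long non-coding RNAs (lncRNAs) and microRNAs, as well as enhancers, which raise transcription of genes at a distance, and repeats.

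The libraries came from sperm of the epididymis and vas deferens, 2 from animals carrying the K49A exchange (lysine to alanine) in protamine 1 and 4 from wild-type C57BL6 mice, all treated with DNase I before decondensation, digested with 5 and then 15 units of MNase and cut from a gel at the size of mononucleosomes. The design text calls the libraries biological replicates, while the protocol gives the amount of sperm per genotype; age and the number of animals behind each library are not stated. A p-value here therefore speaks of the spread among 4 libraries. The K49A lists held 700 and 1017 peaks and the WT lists 11313 to 27903, with 58.0 and 61.0% of peaks between genes in K49A and 24.8 to 32.4% in WT. The names of the deposited lists put WT 1 with K49A 1 and WT 4 with K49A 2, and give WT 2 and WT 3 a shared name of their own. What these names stand for is not stated. Read depth is unknown. The fold and the −log10 q of a peak are the authors' values against a local background. Whether that background came from the same library or from an input control is not stated, so the values describe a peak within its list.

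Among the 726 regions, 8 held a microRNA gene, which is 1.10% of them (95% exact binomial interval 0.477 to 2.16%). Among the 15814 regions between genes that were called in 0 K49A lists and 1 to 3 WT lists, 10 did, or 0.0632% (0.0303 to 0.116%). The 726 regions were wider, with a median of 1311 bp against 321 bp. Per Mb of region there were 8.18 regions with a microRNA gene among the 726 and 1.39 in the other set. Intervals here and below cover counting error and treat regions as independent, and no test was made over regions.

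The microRNAs are shown because several are known regulators of cell fate. The 8 regions overlapped 12 microRNA genes, of which 10 had sequences in the RefSeq table (GRCm38.p6, the assembly that mm10 names). The hairpins of these 10 lay whole inside the merged regions, which join the peaks of several libraries. The 19 mature sequences of the 10 genes had 19 different seeds, so no seed was shared. Gm25641 and Gm51289 lie on the other strand of the Mir9-1 and Mir203 genes. Capitals mark the seed, bases 2 to 8.
mmu-let-7i-5p: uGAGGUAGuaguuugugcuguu
mmu-miR-9-5p: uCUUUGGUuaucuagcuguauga
mmu-miR-9-3p: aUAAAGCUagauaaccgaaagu
mmu-miR-137-3p: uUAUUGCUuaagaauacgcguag
mmu-miR-203-3p: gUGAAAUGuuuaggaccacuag
mmu-miR-193a-3p: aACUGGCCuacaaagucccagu
mmu-miR-760-3p: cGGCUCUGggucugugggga
mmu-miR-5103: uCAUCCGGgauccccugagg

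The region with the highest rank of the 8 held Mirlet7i, a member of the let-7 family that acts in developmental timing, on chromosome 10 from 122985281 to 122986607. Its fold was 5.78, 4.83, 3.25 and 4.17 in WT 1 to 4 (mean 4.51 ± 1.06, SD, n = 4), and the nearest coding gene, Mon2, was 5452 bp away. WT 1 was highest and WT 3 lowest there. The region of Mir9-1, whose microRNA acts in neural progenitors, lay on chromosome 3 from 88214567 to 88216400, with folds of 3.71, 3.05, 2.94 and 2.78 (mean 3.12 ± 0.408, SD, n = 4). It also held Mir3093 and the lncRNA gene Gm3764.

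Other microRNA genes of the nervous system were overlapped too. The region of Mir137 on chromosome 3 (118433186 to 118435781) was 126327 bp from the nearest coding gene, Dpyd, and had folds of 2.81, 2.27, 2.55 and 2.80 in WT 1 to 4. That of Mir124a-2 and its host gene Mir124-2hg on the same chromosome (17794184 to 17796060) had folds of 2.62, 2.74, 2.64 and 2.65, the narrowest spread among the 8 regions. Mir203, which acts in epidermal differentiation, was in a region on chromosome 12 (112129850 to 112131418) with folds of 3.87, 2.63, 2.74 and 2.86, where WT 1 stood above the other 3 libraries. The regions of Mir193a, Mir760 and Mir5103 had mean folds of 3.17 ± 0.236, 3.33 ± 0.152 and 2.71 ± 0.341 (SD, n = 4 each). In the regions of Mir137 and Mir5103 no base was in the peaks of all 4 WT lists. Their folds therefore come from peaks that do not all coincide.

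**Figure D1:**
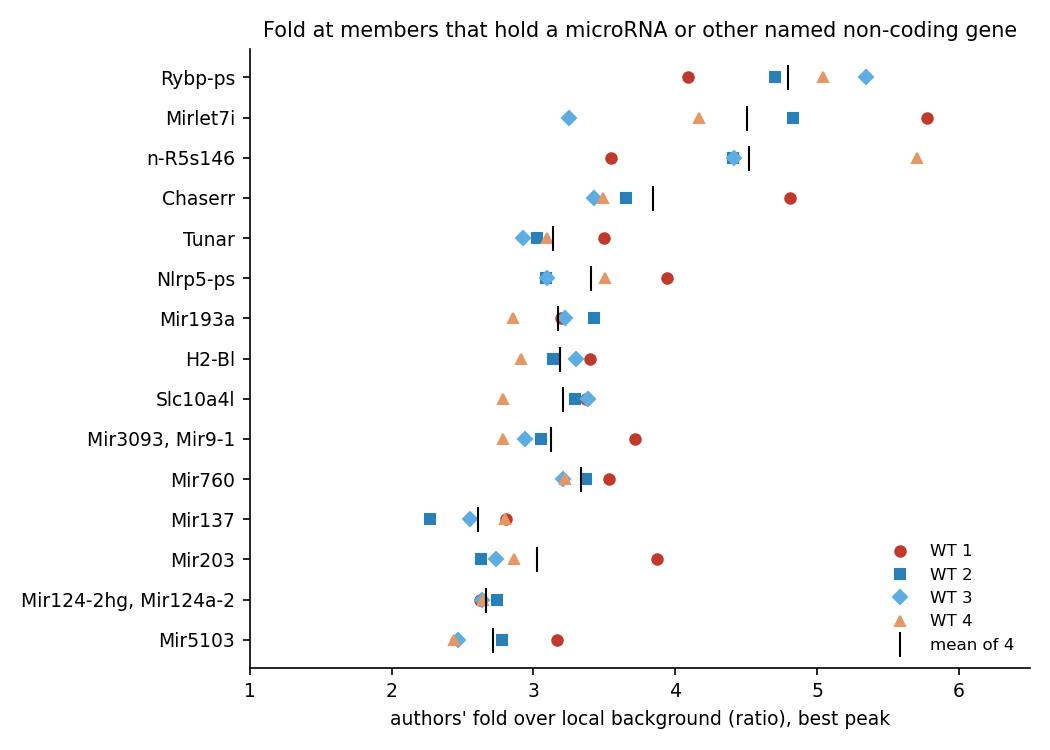
Authors' fold over local background (x axis, ratio) of the best peak in each WT library, for the regions that hold a microRNA gene and for the first 10 by rank at an end of any named non-coding gene (rows; 3 regions are in both groups). Points are libraries and the vertical tick is their mean; most regions lie between 2 and 4, and Rybp-ps, Mirlet7i and n-R5s146 have means above 4.

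Many of the regions held the start of a lncRNA gene. A start lay inside 89 of the 726 regions (12.3%), against 497 of 15814 (3.14%) of the regions with 0 K49A and 1 to 3 WT calls and 5 of 229 (2.18%) of those called in 1 or 2 K49A lists and all 4 WT lists. Per Mb of region the numbers were 91.0, 69.1 and 22.0, a smaller gap to the narrower regions of the second set than in the shares. With any non-coding gene or pseudogene counted, 305 regions (42.0%, interval 38.4 to 45.7%) came within 1 kb of an end, against 2726 (17.2%) of the regions with 0 K49A and 1 to 3 WT calls, but per Mb the order was the other way, with 312 against 379. A lncRNA gene was overlapped by 236 regions (32.5%), against 21.4% of all merged regions between genes, but per Mb by 241, against 467 in the regions with 0 K49A and 1 to 3 WT calls. A pseudogene was overlapped by 96 regions (13.2%, or 98.2 per Mb), against 5.61% of all merged regions between genes and 111 per Mb in the regions with 0 K49A and 1 to 3 WT calls. For tRNA genes there were 5 regions (0.689%, or 5.11 per Mb), against 0.121% of all merged regions between genes (2.43 per Mb). The share that overlapped no annotated gene was 52.9%, against 72.8% of all merged regions between genes. That share was not adjusted for width, and the 726 regions were wider than those with 0 K49A and 1 to 3 WT calls.

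The lncRNA starts inside the regions were richer in CG than lncRNA starts elsewhere between genes. RefSeq windows of 300 bases (250 before to 50 after a start) were matched for 111 starts of 94 lncRNA genes. They held a median of 8 CG (quartiles 4 and 17, range 0 to 49), against 5 in 577 windows of regions with 0 K49A and 1 to 3 WT calls and 3 in 6598 windows that lay in no merged region. At least 10 CG were found in 45.9% of the 111 windows, against 29.3% and 6.56% of the other sets, 8.99% of all 7297 lncRNA windows between genes and 56.7% of all 21262 windows of coding genes. CG reads the same on both strands, and the limit of 10 was chosen after the counts had been seen. The 42 regions with such a start had about the same median mean fold, 2.94, as the 47 regions whose starts had fewer CG, 2.95.

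**Figure D2:**
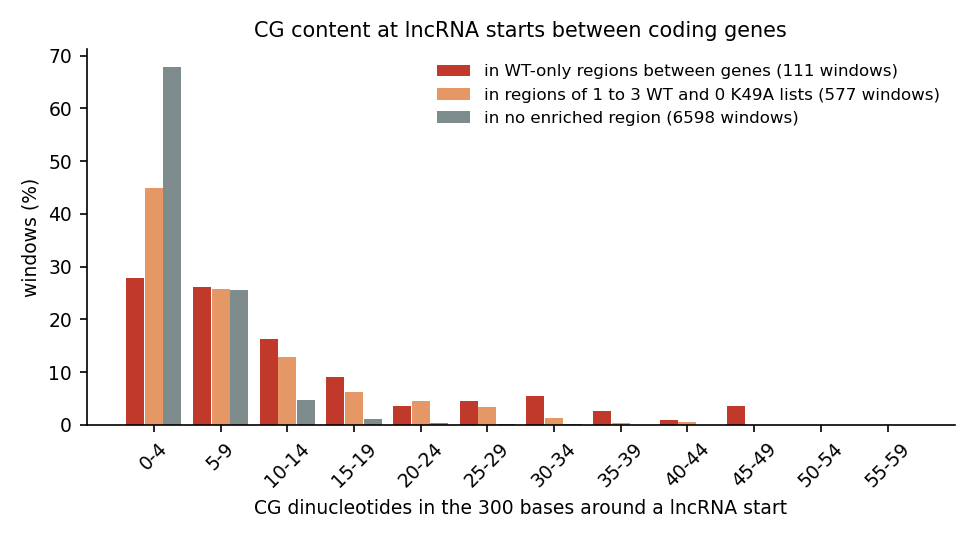
Share of lncRNA start windows (y axis, percent) by the number of CG in their 300 bases (x axis), for windows in the 726 regions, in regions called in 0 K49A and 1 to 3 WT lists, and in no merged region. The share with 0 to 4 CG is 27.9% in the 726 regions and 67.8% in no merged region, and 44.9% in the regions with 0 K49A and 1 to 3 WT calls.

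The range of these starts is shown by 5 windows, named after their values were seen. Capitals mark each CG. Chaserr is on the minus strand (chr7:73558346-73558645, 30 CG), Tunar on the plus strand (chr12:105336743-105337042, 30 CG), Mir9-3hg on the plus strand (chr7:79499776-79500075, 35 CG), Dancr on the plus strand (chr5:74092810-74093109, 18 CG) and Carlr, a start with few CG, on the minus strand (chr2:18801769-18802068, 5 CG; part of this window lies beyond its region), all in GRCm38.p6 and from RefSeq.
Chaserr: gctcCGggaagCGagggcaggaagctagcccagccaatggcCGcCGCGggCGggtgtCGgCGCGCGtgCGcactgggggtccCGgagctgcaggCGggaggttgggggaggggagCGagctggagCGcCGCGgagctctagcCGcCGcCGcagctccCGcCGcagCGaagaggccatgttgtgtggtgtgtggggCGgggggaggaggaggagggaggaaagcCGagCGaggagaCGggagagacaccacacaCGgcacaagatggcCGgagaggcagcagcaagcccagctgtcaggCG
Tunar: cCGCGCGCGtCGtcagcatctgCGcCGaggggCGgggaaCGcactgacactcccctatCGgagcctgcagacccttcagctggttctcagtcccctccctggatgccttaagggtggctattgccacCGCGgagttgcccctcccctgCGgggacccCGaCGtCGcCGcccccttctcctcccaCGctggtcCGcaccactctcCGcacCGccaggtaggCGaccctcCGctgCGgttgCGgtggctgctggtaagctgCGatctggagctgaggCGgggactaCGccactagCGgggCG
Mir9-3hg: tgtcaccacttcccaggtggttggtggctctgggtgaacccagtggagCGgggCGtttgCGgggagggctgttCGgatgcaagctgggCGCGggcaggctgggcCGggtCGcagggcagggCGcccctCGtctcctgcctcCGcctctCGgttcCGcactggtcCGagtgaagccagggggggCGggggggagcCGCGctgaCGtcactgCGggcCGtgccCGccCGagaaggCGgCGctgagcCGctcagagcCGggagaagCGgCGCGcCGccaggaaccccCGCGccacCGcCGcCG
Dancr: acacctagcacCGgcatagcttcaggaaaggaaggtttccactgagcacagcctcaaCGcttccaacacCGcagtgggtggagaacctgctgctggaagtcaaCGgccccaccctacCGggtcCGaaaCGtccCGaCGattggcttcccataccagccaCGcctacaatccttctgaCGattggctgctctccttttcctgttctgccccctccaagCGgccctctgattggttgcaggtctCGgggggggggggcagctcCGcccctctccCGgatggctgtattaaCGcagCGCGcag
Carlr: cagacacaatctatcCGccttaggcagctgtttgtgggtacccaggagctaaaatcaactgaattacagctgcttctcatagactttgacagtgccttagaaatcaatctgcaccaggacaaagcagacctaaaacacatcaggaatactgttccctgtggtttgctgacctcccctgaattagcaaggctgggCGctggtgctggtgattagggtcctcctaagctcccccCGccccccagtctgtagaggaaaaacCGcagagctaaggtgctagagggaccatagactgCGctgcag

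Chaserr is a lncRNA gene beside Chd2, which encodes a chromatin remodeller, and restrains the expression of Chd2. Its region (chromosome 7, 73557520 to 73558708) had folds of 4.81, 3.65, 3.43 and 3.49 in WT 1 to 4, with WT 1 apart from the other 3. Tunar, a lncRNA of pluripotency and neural differentiation, had 3.50, 3.02, 2.93 and 3.10 (chromosome 12, 105336137 to 105337639). Its region also held another Tunar start, with 11 CG in a window not shown above. Dancr, a lncRNA that holds back differentiation, had 3.09, 3.03, 2.75 and 3.25. Mir9-3hg, the host gene of another miR-9 copy, had 2.88, 2.26, 2.29 and 2.19, with WT 1 highest. The CG-poor start of Carlr lay in a region of 2347 bp with folds of 2.93, 2.58, 2.73 and 2.61, no base of which was in the peaks of all 4 WT lists.

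Of lists of non-coding genes, the regions overlapped 3 of 14 microRNA host genes (Mir1a-1hg, Mir124-2hg and Mir9-3hg) and 7 of 212 opposite-strand RNAs, namely Rab10os, Emx2os, Chrna1os, Wt1os, Pax6os1, Banf2os and Junos. All merged regions between genes together overlapped 10 and 39 genes of these lists. The 726 regions overlapped 0 of 12 imprinted or X-inactivation RNAs and 0 of 17 small nucleolar RNA host genes, where all merged regions between genes overlapped 4 and 8. Of the microRNA host genes 13 lay between coding genes themselves, and of the opposite-strand RNAs 18. The same was true of 6 imprinted or X-inactivation RNAs and 7 small nucleolar RNA host genes.

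The nearest coding gene was a developmental transcription factor for 65 of the 726 regions, or 8.95% (interval 6.98 to 11.3%), from 52 different genes. The share was 0.437% (0.0111 to 2.41%) of the 229 regions called in 1 or 2 K49A lists and all 4 WT lists and 4.82% (4.50 to 5.17%) of the 15814 regions with 0 K49A and 1 to 3 WT calls. Over all merged regions between genes the share was 4.83%, while the list makes up 1.16% of coding genes. Among the first by rank were regions near Tfap2c, a factor of trophoblast and germ cells, Sall1, a kidney regulator, and Irx5 of the Iroquois family. Near Tfap2c (chromosome 2, 172635995 to 172637364) the folds were 5.20, 3.21, 3.78 and 4.05 in WT 1 to 4, and near Sall1 (chromosome 8, 89005983 to 89007398) they were 4.07, 3.30, 4.25 and 3.04. The gaps to these genes were 77372 and 19843 bp. Near Irx5 (chromosome 8, 92459998 to 92461499) the mean fold was 3.31 ± 0.267 (SD, n = 4). WT 1 was the highest library near Tfap2c and WT 3 near Sall1.

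Developmental signalling genes were nearest to 12 regions (1.65%, interval 0.857 to 2.87%), against 0.993% of the regions with 0 K49A and 1 to 3 WT calls. They included Wnt2b, a Wnt ligand, Dll4, a Notch ligand, Dkk1, a Wnt antagonist, and Bmp4, a bone morphogenetic protein. Beside Bmp4 (chromosome 14, 46397855 to 46398907, 7185 bp away) the folds were 2.95, 3.23, 3.96 and 3.43, and beside Wnt2b (chromosome 3, 104967771 to 104969236) 3.35, 3.15, 2.79 and 3.17.

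Zinc finger genes, many of which encode repressors of repeats, were nearest to 29 regions (3.99%, interval 2.69 to 5.69%), against 7.86% (4.72 to 12.1%) of the regions called in 1 or 2 K49A lists and all 4 WT lists and 2.43% (2.19 to 2.68%) of those with 0 K49A and 1 to 3 WT calls. The 29 regions had a median mean fold of 3.08, close to the 3.01 of all 726. First by rank among them were regions near Zfp600, Zfp984 and Zfp980 on distal chromosome 4. These had mean folds of 4.63 ± 0.488, 4.38 ± 0.566 and 4.53 ± 0.855 (SD, n = 4 each), and overlapped the pseudogenes Vmn2r-ps17, Gm13136 and Vmn2r-ps15. Zfp600 and Zfp980 each had another region, closer to the gene, at 43343 and 7133 bp, with mean folds of 4.19 ± 0.727 and 3.54 ± 0.483 (SD, n = 4 each). Chemoreceptor genes, which detect odours and pheromones, were nearest to 13 regions (1.79%), against 10.5% (6.83 to 15.2%, from 7 genes) of the regions called in 1 or 2 K49A lists and all 4 WT lists and 1.75% of those with 0 K49A and 1 to 3 WT calls. Examples were Olfr726, Olfr1373, Olfr161 and Vmn2r26, with regions whose mean folds were 3.04 to 3.39.

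Other lists had few regions. Imprinted genes were nearest to 4 regions (0.551%, interval 0.150 to 1.40%), against 0.468% of all merged regions between genes. Of the 4 genes, Cdkn1c, a cell cycle inhibitor, and Kcnq1, a potassium channel gene, lie on chromosome 7. The others were Dio3, a thyroid hormone deiodinase gene, and Plagl1, a zinc finger gene. Gaps were 12175 bp to Cdkn1c, 10706 bp to Kcnq1, 187202 bp to Dio3 and 29347 bp to Plagl1. The regions by Cdkn1c (143444498 to 143446163) and Kcnq1 (143437757 to 143438761) had folds of 3.21, 2.77, 3.16 and 3.51, and of 3.58, 3.45, 2.98 and 3.06 in WT 1 to 4. Ribosomal protein genes (Rps12, Rpl14 and Rps24) were nearest to 3 regions (0.413%), against 0.468% of all merged regions between genes. Spermatid and sperm genes were nearest to 1, near Izumo2, a sperm surface gene. For spermatid and sperm genes the share was 0.138% (0.00349 to 0.765%), against 0.481% (0.379 to 0.601%) of the regions with 0 K49A and 1 to 3 WT calls.

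**Figure D3:**
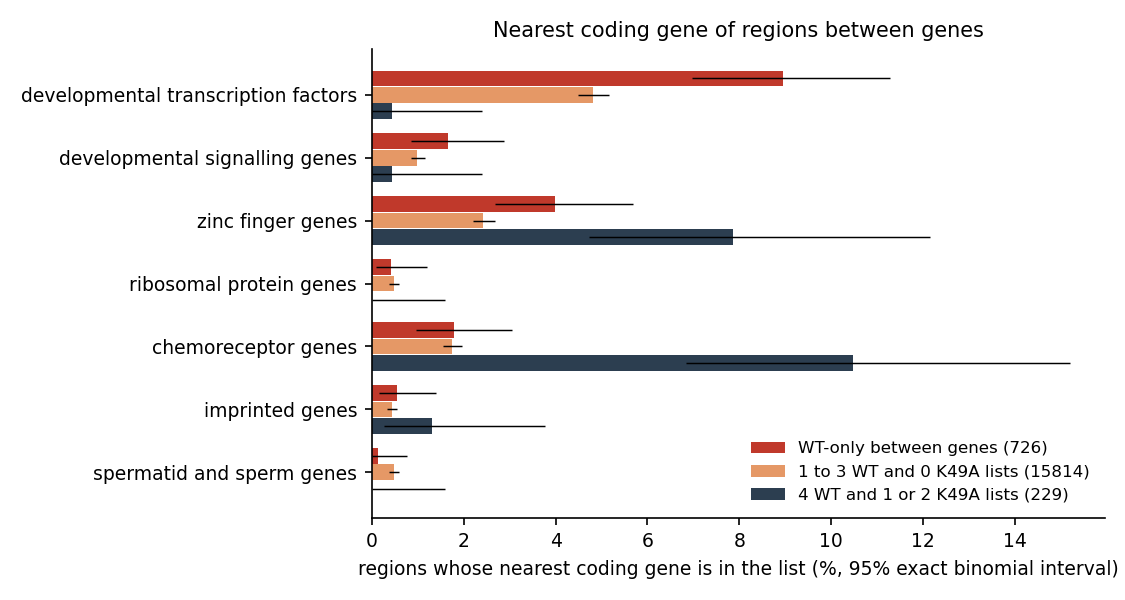
Share of regions between genes (x axis, percent) whose nearest coding gene belongs to each list (rows), for the 726 WT-only regions, regions called in 0 K49A and 1 to 3 WT lists, and regions called in 1 or 2 K49A lists and all 4 WT lists. Lines are 95% exact binomial intervals; developmental transcription factors stand at 8.95% in the first set, and chemoreceptor genes at 10.5% in the last.

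Some genes had several regions around them. Stretches of 2 or more regions no further than 100 kb apart numbered 62 and held 144 regions, and 14 stretches held 3 to 5. Stretches were not counted in other sets of regions, so whether these numbers exceed a background was not tested. The largest had 5 each, around Foxd1 and Tmem174 on chromosome 13 (98365756 to 98574287) and by H2-T3 of the major histocompatibility complex on chromosome 17 (36082912 to 36216793). Of 4 regions each were the stretches at Gm40369, Gm40363 and Pdia4 on chromosome 6 and at A230072I06Rik, Sox1 and Spaca7 on chromosome 8. Of the 10 stretches of 3, 5 lay by Pou3f3, a neural factor, on chromosome 1 (42683998 to 42714519), by the Notch target Hes1 on chromosome 16, by Pax2, a kidney and eye factor, on chromosome 19, by Pou4f3, a hair cell factor, on chromosome 18, and at the HoxC cluster on chromosome 15, where Hoxc12 and Hoxc4 were the nearest genes of the first pair. Nearest genes of the other 5 were Tex44 and Ptma (chromosome 1), Med13l (5), Polg and Rhcg (7), Cxxc5 and Psd2 (18) and Gm3376 (Y). A nearest gene was not always close. Gaps were 214856 to 320417 bp in the Med13l stretch, 290174 to 366827 bp in the Gm3376 stretch and 1961 to 118060 bp in the Hes1 stretch. In the Pou3f3 stretch the region that holds the lncRNA gene Pantr2 (42712650 to 42714519) had folds of 2.90, 2.87, 2.79 and 2.53. By number of regions with the same nearest coding gene, Med13l came first with 5, followed by Pou3f3 and Tcf4 with 4 each, among 658 nearest genes in all.

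The regions were spread over all 19 autosomes and 1 lay on the X chromosome. The autosomes held 23 to 55 regions each, or 1.56 to 4.34 per 10 Mb. Chromosome X held 1 region, 0.0585 per 10 Mb, although it had 153 merged regions between genes, so 0.654% of these were WT-only against 2.65 to 6.67% on the autosomes. That region (126693139 to 126693674) was the 20th by rank, with folds of 4.06, 4.14, 4.05 and 3.68. Chromosome Y held 3 regions, or 0.330 per 10 Mb, all in a stretch from 4073446 to 4150598. They were 4.69% of its 64 merged regions between genes, a share within the range of the autosomes. WT-only regions at gene ends were also rare on X, with 11 of 4434, and none was on Y. The X and Y chromosomes are each carried by part of the sperm only, and the part that copy number has in these numbers was not tested.

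**Figure D4:**
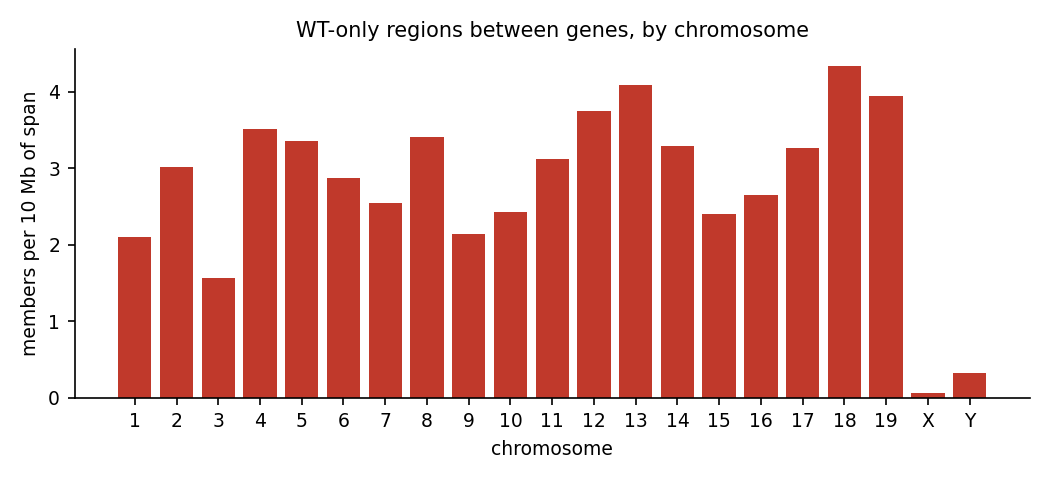
Number of WT-only regions between genes per 10 Mb of chromosome (y axis) for each chromosome (x axis). Bars run from 1.56 to 4.34 on the autosomes and stand at 0.0585 on X and 0.330 on Y.

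Close to coding genes the regions were about as frequent as other regions between genes, and beyond 100 kb their share was below that of the other sets named here. The median gap was 31184 bp (quartiles 11814 and 84401), against 38999 bp for regions called in 1 or 2 K49A lists and all 4 WT lists and 38098 bp for regions with 0 K49A and 1 to 3 WT calls. Within 10 kb of a coding gene lay 21.1% (interval 18.2 to 24.2%), against 20.4% of all merged regions between genes. Over 100 kb away were 157 regions, or 21.6% (18.7 to 24.8%), against 33.6% (27.5 to 40.1%) of regions called in 1 or 2 K49A lists and all 4 WT lists and 28.3% (27.6 to 29.0%) of regions with 0 K49A and 1 to 3 WT calls. The farthest were 1831516 bp from Cntnap5a, 1538364 bp from Got2 and 1426028 bp from Pcdh20. The nearest coding gene had a WT-only region at an end for 36.2% of the 726 regions (32.7 to 39.8%), 20.5% (15.5 to 26.3%) of regions called in 1 or 2 K49A lists and all 4 WT lists, and 34.5% of regions with 0 K49A and 1 to 3 WT calls.

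Values on both sides of the 1 kb limit are given as a description. Just beyond it lay regions near Dusp6 (gap of 1000 bp), Ankub1 (1024 bp) and Otx2 (1071 bp), with mean folds of 2.78 ± 0.319, 2.87 ± 0.265 and 2.95 ± 0.413, and just within it regions near Gfi1 (824 bp), Cdc37l1 (822 bp) and Sall1 (789 bp), with 2.48 ± 0.227, 2.44 ± 0.119 and 4.05 ± 0.265 (SD, n = 4 each). On the side of the calls, 62 regions between genes were called in 1 K49A list and all 4 WT lists, and 1252 in 0 K49A and 3 WT lists. The gap from the 726 regions to the nearest K49A peak had a median of 770438 bp, and for 20 regions it was at most 10 kb.

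The 726 regions had low folds for the most part, and those first by rank were narrow. Mean folds over the 4 WT libraries had a median of 3.01 (quartiles 2.86 and 3.21). The 19 regions under 500 bp had a median mean fold of 3.72, and the 707 wider ones 3.00. The first 10 by rank, the mean percentile of the best peak within each WT list, were 222 to 837 bp wide, and 7 of them overlapped no annotated gene. The regions nearest to Cd209a and Ddx18 were uneven across libraries, with 9.72, 4.92, 8.12 and 14.1 at the first (chromosome 8, 3754299 to 3754622) and 10.7, 4.22, 5.01 and 12.5 at the second (chromosome 1, 122327202 to 122327423). WT 4 was highest and WT 2 lowest at both, while WT 3 was close to WT 1 at the first and to WT 2 at the second. The region near Chrm3 (chromosome 13, 9834206 to 9834587) was even, with 7.10, 7.60, 6.43 and 6.53. The others lay nearest to Gm51600, Tmem30c, Gm3376 on the Y chromosome, Cab39, Zfp600, Gm46425 and Zfp984. The 3 widest, of 3773, 3237 and 3212 bp, near Ndfip2, Nr2e1 and Gdi2, had mean folds of 2.39, 2.57 and 2.77.

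A merged region can join peaks of different libraries that do not themselves coincide. The bases called in all 4 WT lists had a median length of 209 bp per region (quartiles 47.2 and 358), a median of 17.2% of its width. In 387 regions this core was at least 200 bp, and in 153 no base was called in all 4 lists. The 153 had a median mean fold of 2.88, against 3.05 for the other 573.

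Between the 726 regions and the other WT-only regions, no difference in rank, covered length or fold could pass a limit of 0.05. With 4 libraries the exact sign-flip permutation test gives no p below 0.125. The values differed more in WT 1 and WT 4 than in WT 2 and WT 3. The median percentile of the best peak within its own list was 43.0, 69.2, 71.7 and 54.8 in WT 1 to 4 for the 726 regions, against 64.6, 70.9, 74.9 and 81.7 for the 4434 regions at gene ends. The differences were -21.6, -1.76, -3.20 and -26.9 points, a mean of -13.4 ± 6.38 (SE, n = 4), lower in 4 of 4 libraries (exact sign-flip permutation test, two-sided, p = 0.125, the smallest that 4 libraries allow; 0.375 with Benjamini-Hochberg adjustment over 6 tests). The mean was -24.2 points in WT 1 and WT 4 and -2.48 in WT 2 and WT 3, a split chosen after the values had been seen, which is also the split in the names of the lists. Against the 1001 WT-only regions in gene bodies the differences were -13.3, 0.22, 1.46 and -19.7 points, lower in 2 of 4 libraries (p = 0.5 by the same exact permutation test). Regions between genes called in 1 or 2 K49A lists and all 4 WT lists had median percentiles of 93.5, 98.9, 98.9 and 98.8 in WT 1 to 4, given as a description since the calls chose both sets.

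In the length covered by peaks the values for WT 1 and WT 4 again differed more between classes than those for WT 2 and WT 3. A median of 488.5, 880.5, 897 and 580.5 bp of a region was covered in WT 1 to 4, against 556, 877, 925 and 814 bp at gene ends. On the log2 scale the differences were -0.19, 0.01, -0.04 and -0.49, a mean of -0.18 ± 0.11 (SE, n = 4; exact permutation test, two-sided p = 0.25, adjusted 0.5), lower in 3 of 4 libraries and with the largest difference in WT 4. Against regions in gene bodies the mean was -0.10 ± 0.09 (SE, n = 4; lower in 2 of 4 libraries, exact permutation test, two-sided p = 0.5), with -0.34 in WT 4. Without WT 4 the means were -0.08 against gene ends and -0.02 against gene bodies. Folds differed little, with medians of 3.08, 2.97, 3.01 and 2.85, against 3.28, 3.00, 3.07 and 3.12 at gene ends, a log2 difference of -0.07 ± 0.03 (SE, n = 4; lower in 4 of 4 libraries, exact permutation test, two-sided p = 0.125, adjusted 0.375). Against gene bodies it was -0.02 ± 0.02 (SE, n = 4; exact permutation test, two-sided p = 0.375).

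**Figure D5:**
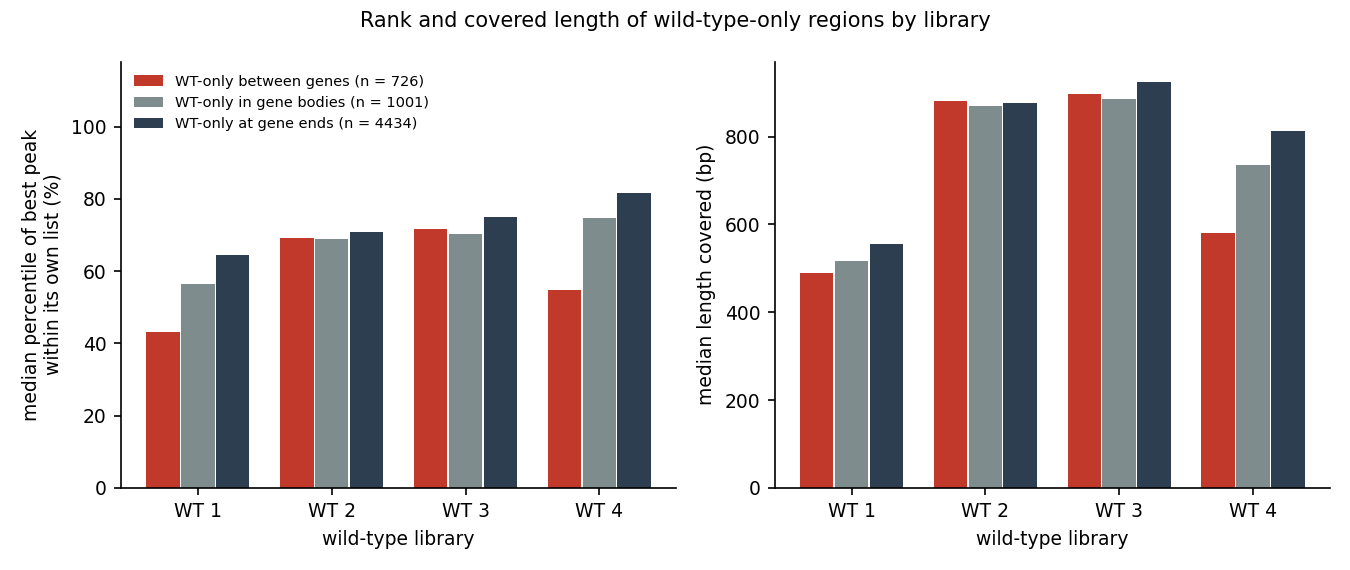
Median percentile of a region's best peak within its own list (left y axis) and median length covered by peaks (right y axis, bp) in each WT library, for WT-only regions between genes, in gene bodies and at gene ends. In WT 1 and WT 4 the regions between genes are the lowest of the 3 classes in both measures, with percentiles of 43.0 and 54.8; in WT 2 and WT 3 the classes lie close together.

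By percentile within its list, the weakest of the 4 calls was most often in WT 1, followed by WT 4. The lowest of the 4 percentiles was in WT 1 for 317 of the 726 regions (43.7%) and in WT 4 for 199 (27.4%). At gene ends WT 1 was also most often the lowest, for 36.8%, whereas WT 4 was the lowest for 13.3%. A q above 0.05, between that value and the limit of 0.1 at which the lists end, was found for 11.8% of the 726 regions in WT 1 (interval 9.59 to 14.4%), against 5.86% at gene ends, and for 3.03% in WT 4 (1.91 to 4.55%), against 0.677%. In WT 2 and WT 3 it was found for 2.34 and 0.826% of the 726 regions. Of the 1252 regions between genes with 0 K49A and 3 WT calls, 736 (58.8%) lacked a call in WT 1 and 370 (29.6%) in WT 4, and at gene ends the shares of 2825 such regions were 67.6 and 7.72%. Without WT 1 the set held 1455 regions, and without WT 4 it held 1091. Ranks of the 726 regions agreed weakly between WT lists, with Spearman's rho of 0.23 to 0.33. For WT-only regions at gene ends it was 0.16 (WT 2 with WT 4) to 0.49 (WT 1 with WT 4). These values are across regions, which share chromosomes and neighbours and are not replicates.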

How the data were processed

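MNase-seq was measured in sperm, with 2 K49A and 4 WT libraries, grouped and numbered by sample title. Per the submitters' processing notes, FastQC, BWA, Picard, SAMtools and MACS2 were used with build mm10. Their versions and settings, and whether an input control was used, are not stated in those notes. The deposited files list, per library, broad peaks with a fold (ratio over local background), a −log10 p, a −log10 q and a whole-number score, all the authors' values; the score was not used.

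Peaks were merged if they overlapped or touched and placed against 21883 coding and 28056 other genes of the RefSeq table for GRCm38.p6. A list called a region if it overlapped by at least 1 bp. A region's best peak had the highest −log10 q, and percentiles were ranks of −log10 q within a list. Classes were compared within the 4 WT libraries by exact sign-flip permutation (16 sign patterns). No test was made between genotypes, because the rule uses those calls. Regions named followed a rule: the first 10 by mean percentile, the 3 widest, farthest and nearest to the limit, those with microRNA genes, the first 10 at named non-coding genes and up to 4 per gene list; others were named after their values were seen. A region that the rule names is not reported here. The regions and lists were chosen with earlier results of these data known. Merging, calling and placing were tested on simulated data. Python 3.11.15, pandas 2.3.3, numpy 2.4.6, scipy 1.17.1 and matplotlib 3.10.9 were used.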

Additional observations from a re-analysis of the deposited data

Results flagged for a closer look

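In 3 of 63 values or regions checked over the 4 WT libraries, 1 library lay far from the other 3, where chance gives about 1 in 20. At the region near Tmem30c on chromosome 16 (57264486 to 57264836) the fold was 6.80 in WT 1 and 5.34 to 5.54 in the others. At Chaserr, near Chd2, it was 4.81 in WT 1 and 3.43 to 3.65 in the others. At the region of the pseudogene Slc10a4l near Zar1 on chromosome 5 (72586947 to 72588105) it was 2.79 in WT 4 and 3.29 to 3.38 in the others.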

How the results depend on the processing

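The number of regions depended on the calls: 123 at a −log10 p of at least 5, 158 at a −log10 q of at least 2, 7 with the 700 strongest peaks per list, 127 when a call needed 0.5 of the region, and 350 when all annotated genes were used in place of coding genes. It was 646 to 750 with other gene windows or a merging gap of 150 bp, 753 and 762 without either K49A library, and 756 to 1455 leaving out each WT library (1455 without WT 1, 1091 without WT 4). The share near non-coding genes was 37.0% with 0.5 covered, 46.3% with a 2 kb window and 36.5 to 41.1% leaving out each WT library. The share within 10 kb of a coding gene stayed between 20.3 and 22.9%. Differences between classes kept their direction in every alternative run but 1: the fold against gene bodies became 0.0027 (log2) at a −log10 p of at least 5. At that level the percentile difference from gene ends shrank to -2.33 points, with percentiles taken in the full lists; leaving out each WT library it was -17.2 to -8.84 points. The covered length differed by -0.24 to -0.08 (log2) from gene ends and by -0.14 to -0.02 from gene bodies when each WT library was left out, nearest to 0 without WT 4. The split into WT 1 with WT 4 and WT 2 with WT 3 was chosen after seeing the data. The causes were not tested. Without read counts, depth limits cannot be given. No paired analysis was possible because, between K49A and WT, the calls chose the regions and no test was made; the comparisons of classes are themselves paired within libraries.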
